A study of Mus musculus with 29 samples.

Results

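The effect of the 5xFAD transgenes was followed in the cortex of mice that all carried a drug-controlled stress kinase in their microglia. The comparison set 4 5xFAD iPKR libraries against 5 iPKR ASV libraries, 9 of the 29 libraries in the series, which were taken by their labels and not by any measured value. Both groups had the genotype Cx3cr1CreErt2/+;Eef1a1LSL.NS3.eGFPL10a.iPKR/+, and the 5xFAD iPKR mice carried 5xFAD in addition. All were 6 months old and had received 6 gavages of tamoxifen at 100 mg/kg to switch the construct on. All then received VEGF (1 µg/kg) followed by oral ASV (5 mg/kg) over 4 weeks, starting at 4 to 5 months of age in the iPKR ASV group and at 5 months in the 5xFAD iPKR group. The iPKR construct joins an NS3 protease, the eGFP-L10a ribosomal tag and an inducible form of the kinase PKR, and it follows Cre recombination driven by Cx3cr1, a gene of microglia and of other macrophages. ASV (asunaprevir) is an inhibitor of the NS3 protease. The control mice thus had the kinase construct, VEGF and the drug as well, and the comparison bears on the 5xFAD transgenes and not on the kinase. The 5xFAD transgenes include mutant human APP, expressed in neurons under mouse Thy1 regulatory sequence. The sequenced RNA was the polyA RNA bound to ribosomes that an antibody to GFP pulled out of the tissue lysate (translating ribosome affinity purification, TRAP).

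Microglia that touch amyloid plaques are known to switch from a homeostatic programme to a plaque-response programme of lysosomal, lipid-handling and phagocytic genes, in which the receptor TREM2 carries the second step. The integrated stress response is a separate pathway: kinases such as PKR phosphorylate eIF2α (gene Eif2s1), general translation falls, and the transcription factor ATF4 raises genes of amino acid synthesis and of stress control. The unfolded protein response, another pathway, raises the chaperones of the endoplasmic reticulum (ER).

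Library totals were 1750451 to 6375766 counts in the iPKR ASV group and 1662486 to 12496095 in the 5xFAD iPKR group. Batch 1 held iPKR ASV replicates 1, 2 and 3 with 5xFAD iPKR replicates 1 and 2, and batch 2 held the others. Y-linked reads went against the labelled sex in 6 of the 9 libraries (iPKR ASV replicates 1, 3, 4 and 5 and 5xFAD iPKR replicates 1 and 2). With sex taken from the reads in place of the label, 329 genes were called, 273 higher (1.7%) and 56 lower (0.348%), against 277 with the label. No 2 libraries of a group were copies of each other.

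The RNA was not that of microglia alone, and the mixture differed between libraries. The 16 pan-microglial genes, such as Csf1r and Trem2, took 0.311%, 0.495%, 0.0971%, 0.454% and 1.05% of counts in iPKR ASV replicates 1 to 5. They took 0.775%, 0.205%, 2.10% and 1.90% in 5xFAD iPKR replicates 1 to 4, so that the groups overlapped and the batch 2 libraries with 5xFAD were the richest. In the 5 TRAP libraries, whose mice had the tag without the construct, the same genes took 3.82% to 5.49%. The 13 neuron markers, such as Snap25, took 3.50% and 4.01% of counts in 5xFAD iPKR replicates 1 and 2 and 2.77% in iPKR ASV replicate 3, against 0.590% to 1.55% in the other 6 libraries. These 3 libraries also had the smallest shares of nuclear long noncoding RNAs such as Malat1, at 0.0178%, 0.0194% and 0.0455%. In such bulk samples, fewer cells of a type and less RNA per cell cannot be told apart. Gene changes are therefore given on 2 scales: relative to the whole library (CPM, the usual depth-scaled read count, here with TMM factors) and relative to the pan-microglial counts of the same library. The second scale lowers the median log2 fold change of all 16074 genes tested from 0.00 to -1.34.

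**Figure D1:**
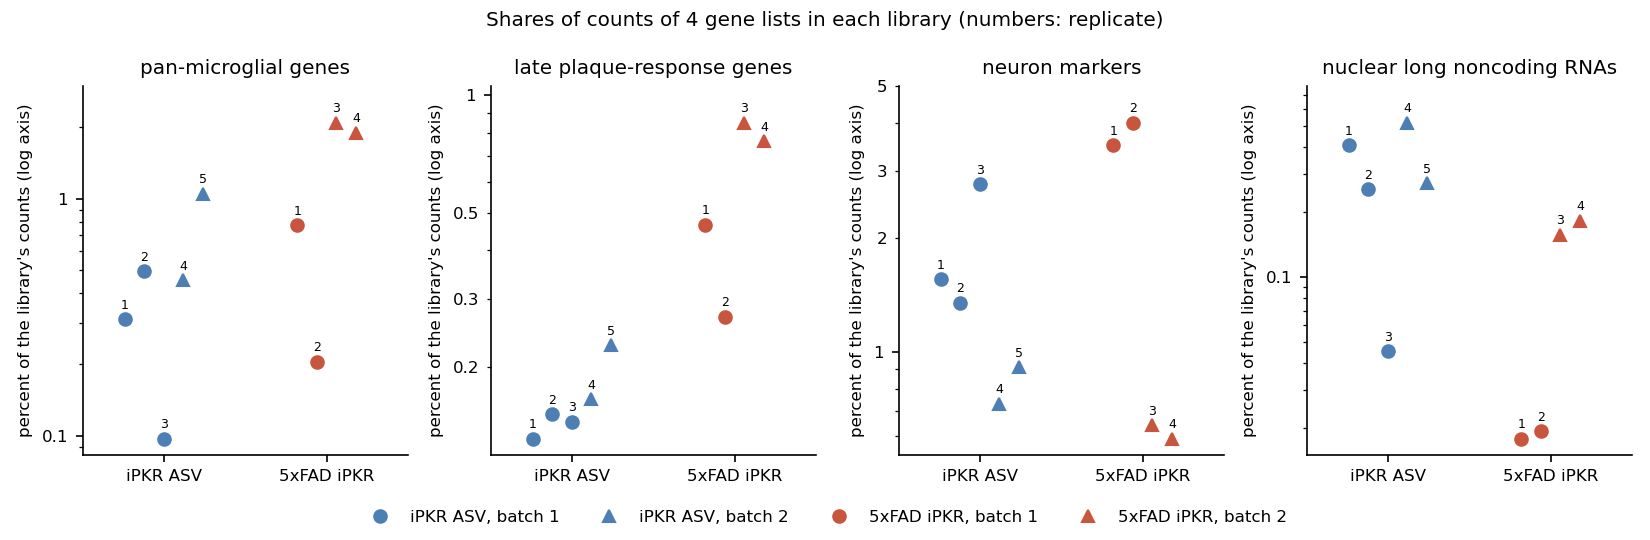
Share of each library's counts (percent, log axis) taken by pan-microglial genes, late plaque-response genes, neuron markers and nuclear long noncoding RNAs in the 5 iPKR ASV and 4 5xFAD iPKR libraries; circles are batch 1, triangles batch 2, and the number is the replicate. Late plaque-response genes separate the groups, at 0.131% to 0.228% and 0.270% to 0.851%, while the other 3 shares overlap.

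With 5xFAD, 277 of the 16074 genes changed (1.72%), 248 higher (1.54%) and 29 lower (0.18%). A gene is called here when its adjusted p is under 0.05 in edgeR's quasi-likelihood test, adjusted by Benjamini-Hochberg over all genes. The libraries of the groups did not overlap for 248 genes that were higher (1.54%) and for 147 that were lower (0.915%), called or not. The number of calls rested on the other groups of the series, which share the estimate of spread: with only these 9 libraries in the model, 10 genes were called of 13473 tested. Of these, Spp1, Cd74, Lgals3bp, Gpnmb, Itgax, Lpl, Clec7a, Grn and Axl were higher (0.0668%) and the noncoding Gm26917 was lower (0.00742%). Lgals3bp, Gpnmb, Axl and Gm26917 fall outside the rule for named genes and are given because the count is small. With the 3 iPKR groups in the model 22 genes were called, 21 of them higher (0.149%). The groups differed in spread. The pan-microglial share averaged 0.482% (SD 0.355) in iPKR ASV and 1.24% (SD 0.905) in 5xFAD iPKR. In the other groups of the series the means ran from 0.368% to 6.59% and the SDs from 0.105 to 0.746. The SE and adjusted p given for single genes use the shared spread. Whether that spread is too small for the 2 groups compared was not tested. Single libraries moved the total: leaving out 5xFAD iPKR replicate 3 gave 172 calls, replicate 1 of that group 179 and replicate 2 of that group 472, and leaving out iPKR ASV replicate 3 gave 542. Without the 3 libraries richest in neuron markers it was 739, of which 686 were higher (3.97%).

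Most genes of the late plaque response rose. Of its 23 members 17 were called higher and 0 lower, with 22 positive fold changes, where 1.54% of all genes were called higher, and the median log2 fold change of the list was 2.51 (1.03 on the pan-microglial scale). The called members were Cst7, Ctsa, Ctsl, Ctsz, Cd9, Cd68, Spp1, Itgax, Clec7a, Lgals3, Lpl, Axl, Timp2, Gpnmb, Cd63, Cadm1 and Csf1. Without the 3 neuron-rich libraries 17 were called as well, and 12 were called higher in each batch taken alone, where 1.89% (batch 1) and 0.613% (batch 2) of all genes were. With only the 2 groups in the model 6 were called, and with the 3 iPKR groups 10.

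Cst7, which encodes the cathepsin inhibitor cystatin F (ENSMUSG00000068129.5, chr2:150570415-150578944, + strand, mm10), changed the most among them. It was at 8.33, 2.64, 4.71, 1.68 and 3.88 CPM in iPKR ASV replicates 1 to 5 and at 274.5, 23.1, 671.1 and 600.2 CPM in 5xFAD iPKR replicates 1 to 4. Every library with 5xFAD lay above every library without it, and the neuron-rich replicate 2 was the lowest of the 4. The log2 fold change was 6.27 ± 0.63 (SE from the fit on all 29 libraries, n = 4 and 5; edgeR adjusted p = 1.356e-06), and it was 4.57 in batch 1 and 7.65 in batch 2. With only the 2 groups in the model Cst7 was not called. With the 3 iPKR groups it was called (edgeR adjusted p = 0.01444).

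Spp1, which encodes the secreted phosphoprotein osteopontin (chr5:104435118-104441050), was at 3.51, 5.28, 8.25, 7.29 and 8.27 CPM without 5xFAD. It was at 87.3, 68.1, 199.8 and 195.3 CPM with it. The groups did not overlap, and the log2 fold change was 4.10 ± 0.60 (SE; edgeR adjusted p = 0.0001504). Itgax, the integrin subunit CD11c, was at 0.438, 1.51, 2.95, 0 and 0.905 CPM without 5xFAD and at 32.2, 23.1, 22.4 and 21.2 CPM with it. Its 4 values with 5xFAD were close together although the microglial share of those libraries was not, and the log2 fold change was 4.64 ± 0.73 (SE; edgeR adjusted p = 0.000388). Clec7a, the receptor dectin-1, had no count in iPKR ASV replicates 1 to 3 and 1.80 and 7.88 CPM in replicates 4 and 5. With 5xFAD it was at 62.0, 10.7, 105.3 and 147.0 CPM, again without overlap (log2 fold change 4.99 ± 0.81 SE, edgeR adjusted p = 0.0005356).

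Lpl, the lipoprotein lipase, was at 9.06 to 25.9 CPM without and 76.4 to 129.6 CPM with 5xFAD, a log2 fold change of 2.73 ± 0.46 (SE; edgeR adjusted p = 0.0008781). Serpine2, a secreted inhibitor of serine proteases, rose by 1.90 ± 0.24 (SE) on the log2 scale (edgeR adjusted p = 2.979e-05), from 120.2 to 311.6 CPM without to 596.9 to 832.2 CPM with 5xFAD. Fabp5, Ank, Cd52, Igf1, Hif1a and Ch25h were the 6 late members not called. Of these, the pyrophosphate transporter gene Ank was at 159.9 to 207.7 CPM without and 250.3 to 298.7 CPM with 5xFAD (log2 fold change 0.62 ± 0.25 SE, edgeR adjusted p = 0.236), without overlap.

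**Figure D2:**
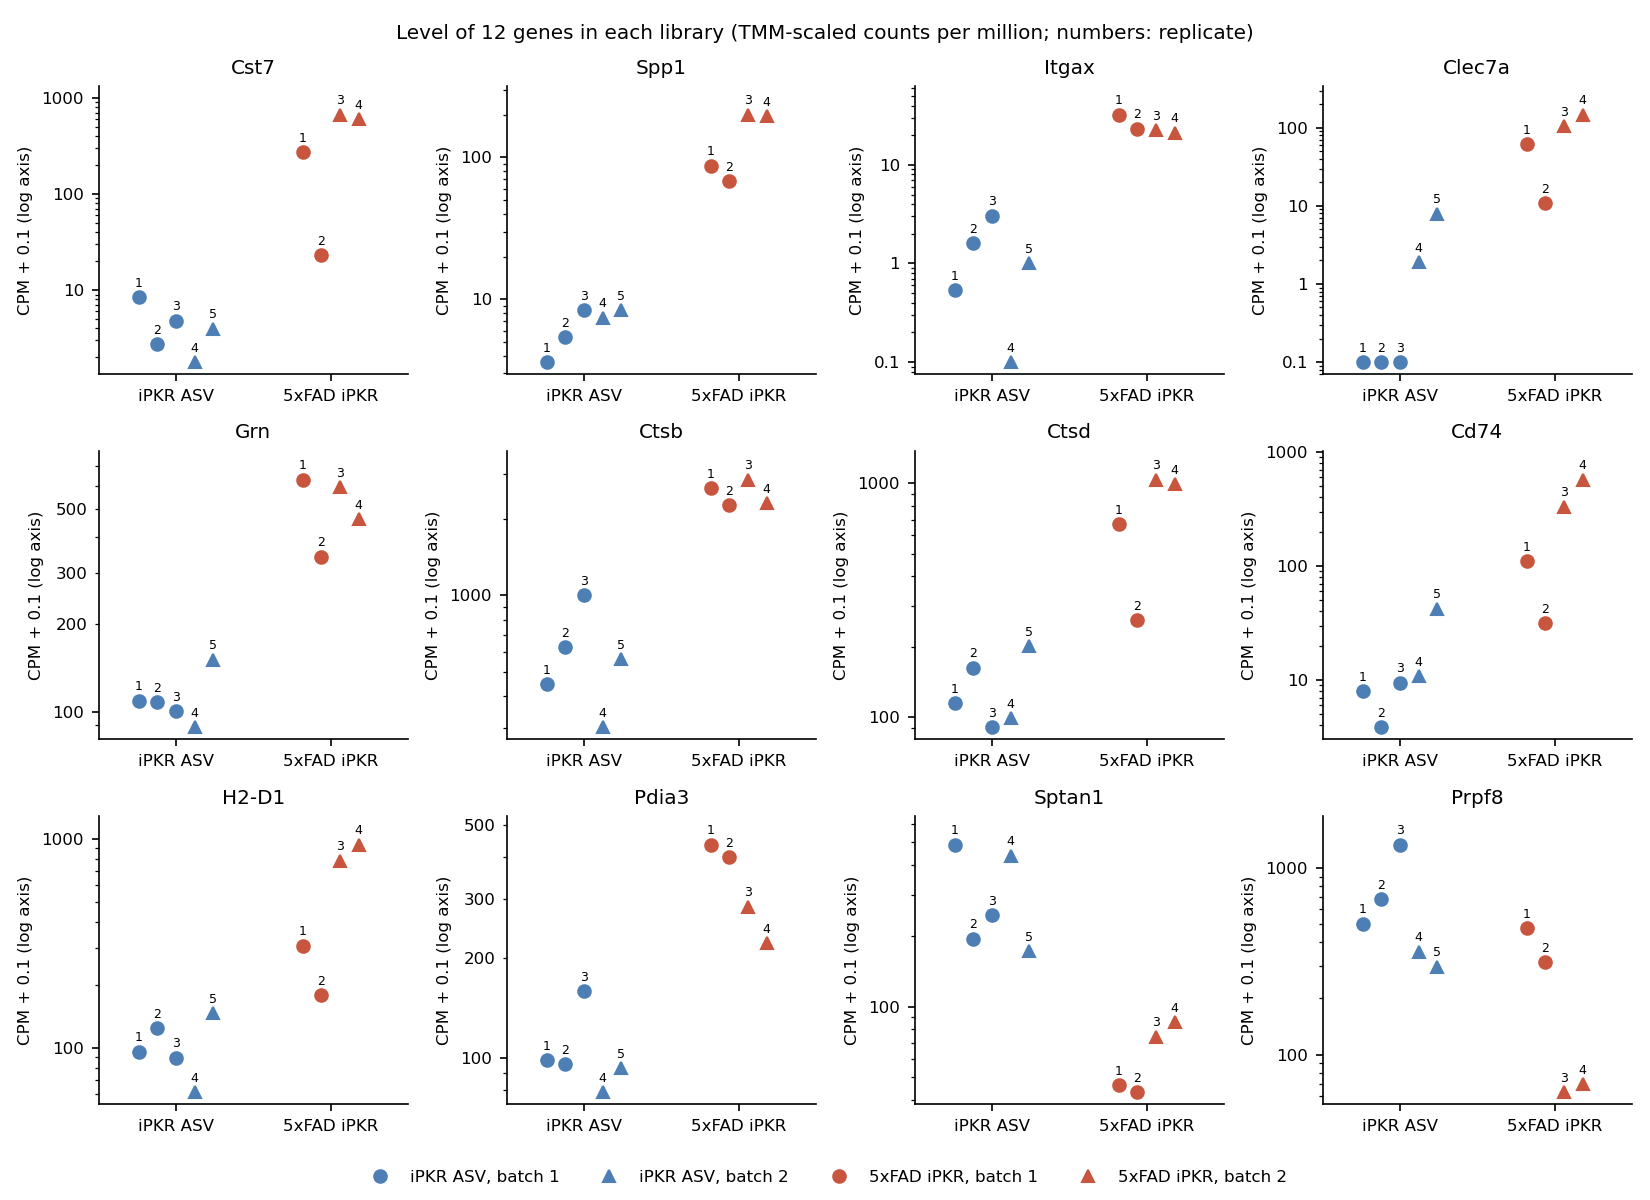
Level of 12 genes in each library, as TMM-scaled CPM plus 0.1 on log axes, with iPKR ASV in blue and 5xFAD iPKR in red (circles batch 1, triangles batch 2, number the replicate). Cst7, Spp1, Itgax, Clec7a, Grn, Ctsb, Ctsd, H2-D1 and Pdia3 lie higher in all 4 libraries with 5xFAD, Sptan1 lies lower in all 4, and Cd74 and Prpf8 overlap between the groups.

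Of the 6 early plaque-response genes 4 were called higher, Ctsb, Ctsd, Apoe and Lyz2, where 1.54% of all genes were. Positive fold changes were found in 5, with a list median of 2.07 (0.82 on the pan-microglial scale). Batch 1 alone gave 3 calls higher and 1 lower, where 1.1% of all genes were called lower, and batch 2 alone gave 4 higher. With only the 2 groups in the model edgeR called 0, and 3 had an unadjusted p under 0.05. With the 3 iPKR groups it called 3. Apoe, which encodes the lipid carrier apolipoprotein E, was at 343.5, 420.5, 361.7, 303.0 and 843.1 CPM without 5xFAD and at 1927, 1133, 3057 and 3193 CPM with it. The groups did not overlap, and the log2 fold change was 2.09 ± 0.33 (SE; edgeR adjusted p = 0.0004436). Lyz2, the lysozyme of macrophages, rose by 2.32 ± 0.57 (SE; edgeR adjusted p = 0.02884) with overlap between the groups. The call of Lyz2 was lost without iPKR ASV replicate 4, 5xFAD iPKR replicate 3 or 5xFAD iPKR replicate 4, with adjusted p up to 0.08198. The adaptor gene Tyrobp (log2 fold change 1.54) and the ferritin gene Fth1 (-0.42), which complete the list, were not called.

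Cathepsins and lysosomal enzymes were called higher in large part, and subunits of the lysosomal proton pump were mostly not called. Of the 11 cathepsins 7 were called higher, Ctsa, Ctsb, Ctsl, Ctsd, Ctsz, Ctss and Ctsc, with a list median of 1.58 (0.40 on the pan-microglial scale). Of 34 lysosomal enzymes and membrane proteins 18 were called higher and 0 lower, where 1.54% of all genes were called higher. Their median of 1.19 became -0.05 on the pan-microglial scale. Among those called were Grn, Hexa, Cd68, Asah1, Ppt1, Tpp1, Man2b1, Lamp2, Lamp1, Scarb2, Gusb, Naglu, Lgmn, Glb1 and Cd63. With only the 2 groups in the model, edgeR called 0 cathepsins and 1 lysosomal gene, and 7 and 19 had an unadjusted p under 0.05. With the 3 iPKR groups it called 5 and 3. Among 19 subunits and partners of the V-ATPase, the pump that acidifies lysosomes, Atp6ap1 alone was called, and the list median was 0.29 (-0.85 on the pan-microglial scale). The call of Atp6ap1 was lost without iPKR ASV replicate 1, 2, 4 or 5 or 5xFAD iPKR replicate 1 or 2, with adjusted p up to 0.2456 without the last.

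Ctsb, the cysteine protease cathepsin B, was at 447.3, 623.2, 997.7, 302.6 and 559.1 CPM without 5xFAD and at 2630, 2256, 2846 and 2297 CPM with it. The 4 libraries with 5xFAD were nearly level and all above the controls (log2 fold change 2.05 ± 0.24 SE, edgeR adjusted p = 1.481e-05). Ctsd, the aspartic protease cathepsin D, was at 114.4, 162.1, 90.4, 98.8 and 200.3 CPM without and 670.0, 259.8, 1037 and 991.0 CPM with 5xFAD. It followed the microglial share more closely, with the lowest value of the 4 in replicate 2, and rose by 2.34 ± 0.30 (SE; edgeR adjusted p = 2.979e-05). Grn, which encodes the lysosomal glycoprotein progranulin, was at 109.1, 107.6, 100.4, 88.4 and 150.7 CPM without 5xFAD. It was at 629.0, 341.5, 593.5 and 458.8 CPM with it, and its log2 fold change was 2.17 in batch 1 and 2.04 in batch 2. Ctsa, a serine carboxypeptidase, rose by 1.81 ± 0.20 (SE; edgeR adjusted p = 4.565e-06), and Ctsz by 2.53 ± 0.34 (SE; edgeR adjusted p = 6.081e-05). Hexa, a subunit of the lysosomal β-hexosaminidase, rose by 2.17 ± 0.29 (SE; edgeR adjusted p = 6.106e-05).

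The CLEAR motif, read here as TCACGTGA on either strand, is known as a binding sequence of TFEB, a transcription factor of lysosomal genes. In the 250 bases before the start of 11501 tested genes with a RefSeq promoter (GRCm38.p6), 1.57% held it. Of 6 called cathepsin genes with a promoter, Ctsa and Ctsd held it, and of 14 called genes of the lysosomal list none did. The 2 windows are shown because these are the called cathepsin genes that held the motif, which is in capitals, Ctsa on chr2:164833750-164833772 (+ strand) and Ctsd on chr7:142387909-142387936 (- strand).
Ctsa: gagcaaactgTCACGTGAtgcag
Ctsd: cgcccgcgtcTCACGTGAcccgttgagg

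Some antigen presentation genes rose as well. With only the 2 groups in the model, edgeR called 1 class II gene and 0 of 10 class I genes tested, of which 4 had an unadjusted p under 0.05. Of 8 MHC class II genes tested 4 were called higher, Cd74, H2-Ab1, H2-Aa and H2-Eb1, where 1.54% of all genes were. All 8 had positive fold changes, with a median of 2.54 (1.27 on the pan-microglial scale). Cd74, the class II invariant chain, was at 7.89, 3.78, 9.43, 10.7 and 42.1 CPM without 5xFAD and at 109.9, 31.4, 332.2 and 572.0 CPM with it. The groups overlapped, because iPKR ASV replicate 5, the control richest in microglial RNA, lay above 5xFAD iPKR replicate 2, the poorest with 5xFAD. The log2 fold change was 3.77 ± 0.54 (SE; edgeR adjusted p = 0.0001104) and the call was kept without any 1 library. H2-Aa, the α chain, was at 0, 0, 3.24, 5.39 and 6.20 CPM without and 10.9, 1.78, 49.8 and 119.5 CPM with 5xFAD. Its call (log2 fold change 3.55 ± 0.88 SE, edgeR adjusted p = 0.03242) was lost without iPKR ASV replicate 1, 2, 4 or 5 or 5xFAD iPKR replicate 3 or 4. That of H2-Ab1 was lost without iPKR ASV replicate 1 or 4 or 5xFAD iPKR replicate 3 or 4, and that of H2-Eb1 without any 1 of the libraries other than 5xFAD iPKR replicates 1 and 2. The adjusted p of H2-Aa, H2-Ab1 and H2-Eb1 reached 0.1416, 0.1285 and 0.2137 in edgeR, each without 5xFAD iPKR replicate 4.

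Of 13 MHC class I genes 5 were called higher, H2-D1, H2-K1, Tap2, Tapbp and Nlrc5, where 1.54% of all genes were. The list median was a log2 fold change of 1.54 (0.15 on the pan-microglial scale). H2-D1, a classical class I heavy chain, was at 95.5, 123.8, 89.6, 61.4 and 146.4 CPM without 5xFAD and at 307.9, 178.2, 785.0 and 934.1 CPM with it. The groups of H2-D1 did not overlap, and the log2 fold change of 2.17 ± 0.39 (SE; edgeR adjusted p = 0.001882) was 1.25 in batch 1 and 3.03 in batch 2. Tapbp, the tapasin that loads peptide on class I, rose by 1.54 ± 0.23 (SE; edgeR adjusted p = 0.000191). Tap2, a subunit of the peptide transporter, rose by 2.14 ± 0.41 (SE; edgeR adjusted p = 0.003884). Nlrc5, the activator of class I transcription, was at 0 to 0.295 CPM without and 1.78 to 4.98 CPM with 5xFAD (log2 fold change 4.71 ± 0.99 SE, edgeR adjusted p = 0.008889).

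Interferon response genes leaned the same way, but few passed the test. Of 24 members 21 had positive fold changes and the median was 1.15 (-0.24 on the pan-microglial scale), while Oas1a alone was called, where 1.54% of all genes were called higher. Oas1a, an antiviral sensor of double-stranded RNA, was at 3.07, 3.40, 1.18, 0.337 and 0 CPM without and 10.1, 2.96, 11.3 and 13.6 CPM with 5xFAD. The groups overlapped, and the call (log2 fold change 3.00 ± 0.75 SE, edgeR adjusted p = 0.03314) was lost without iPKR ASV replicate 4 or 5 or 5xFAD iPKR replicate 1, 3 or 4, with adjusted p up to 0.09487 without the first of these.

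Integrin chains of the complement receptors rose, while complement components did not pass the test. Of 14 complement components and receptors 3 were called higher, Itgb2, Itgax and Itgam, where 1.54% of all genes were. The list median was 1.29 (-0.03 on the pan-microglial scale). The complement component C3 and the C1q chains were not called, with log2 fold changes from 1.15 to 1.43. Itgb2, the β2 integrin chain that pairs with CD11b and CD11c, was at 10.5, 15.9, 19.4, 17.4 and 28.4 CPM without and 118.7, 64.5, 101.7 and 65.4 CPM with 5xFAD. It did not overlap and rose by 2.16 ± 0.22 (SE; edgeR adjusted p = 1.61e-06). Itgam, the CD11b chain, rose by 1.25 ± 0.21 (SE; edgeR adjusted p = 0.0008059).

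Of 15 Fc receptors and ITAM adaptors 3 were called higher, Trem2, Plcg2 and Fcgr2b, where 1.54% of all genes were. The list median was 0.89 (-0.54 on the pan-microglial scale). With only the 2 groups, only the 3 iPKR groups or batch 1 alone, edgeR called 0 of this list, and 3, 3 and 4 had an unadjusted p under 0.05. Batch 2 alone gave 3 calls higher. Trem2, the lipid receptor of the plaque response, was at 29.8, 72.1, 6.78, 67.8 and 142.9 CPM without 5xFAD and at 260.0, 54.5, 648.6 and 511.9 CPM with it. The groups overlapped through 5xFAD iPKR replicate 2, and the log2 fold change was 2.31 ± 0.48 (SE; edgeR adjusted p = 0.007922). Plcg2, a signalling phospholipase downstream of TREM2, rose by 1.37 ± 0.29 (SE; edgeR adjusted p = 0.009172), and its adjusted p was 0.07321 without 5xFAD iPKR replicate 4. Fcgr2b, the inhibitory Fc receptor, rose by 1.601 ± 0.37 (SE; edgeR adjusted p = 0.01987), with calls lost without iPKR ASV replicate 4 or 5xFAD iPKR replicate 3 (adjusted p up to 0.07288).

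Of 12 Toll-like receptors and adaptors, Cd14, the lipopolysaccharide co-receptor, was called (log2 fold change 2.04 ± 0.29 SE, edgeR adjusted p = 0.0001072), where 1.54% of all genes were called higher. Tlr12, a Toll-like receptor that is not on that list, gave 182 counts in the 4 libraries with 5xFAD and 1 count in the 5 without. Its values with 5xFAD were 6.04, 2.37, 8.42 and 5.60 CPM, and the ratio of the summed counts, scaled to library size, was 177.2 (95% exact interval 31.4 to 7035, counting error only). Of 9 chemokines Ccl3 and Ccl4 were called (log2 fold changes 4.66 ± 0.62 and 3.11 ± 0.54 SE; edgeR adjusted p = 6.081e-05 and 0.001265), both with overlap through 5xFAD iPKR replicate 2. Of 16 cytokine and NF-κB feedback genes 0 were called by edgeR, 4 had an unadjusted p under 0.05, and limma-voom and DESeq2 called 1 and 2, while Il1b, the cytokine interleukin-1β, had a log2 fold change of 2.82 ± 1.14 (SE; edgeR adjusted p = 0.2517).

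**Figure D3:**
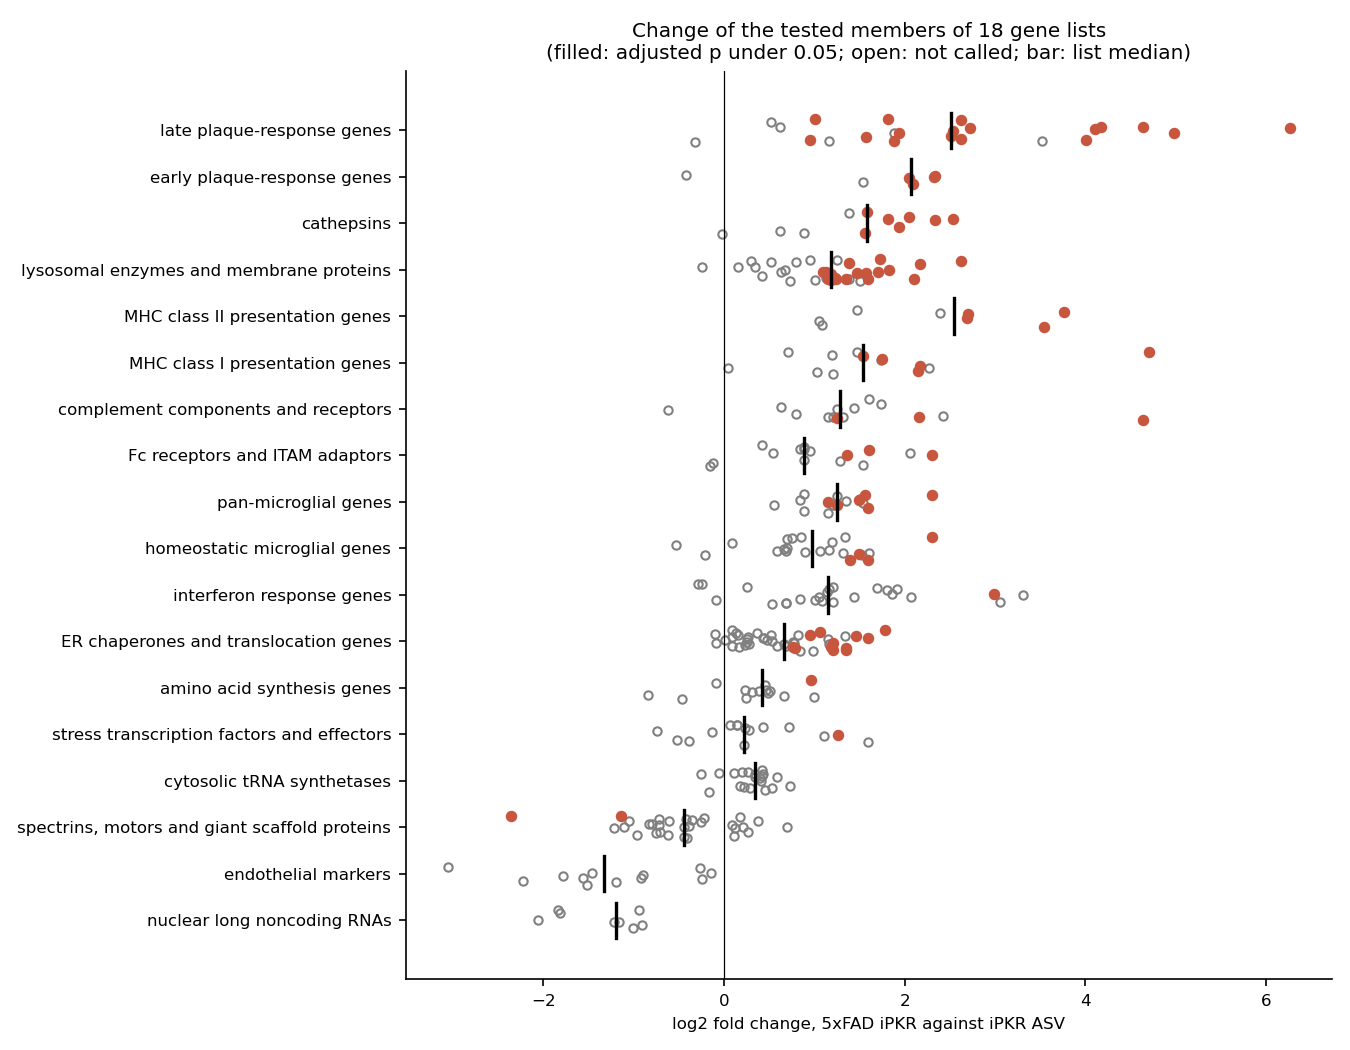
Log2 fold change with 5xFAD for each tested member of 18 gene lists; filled points passed the test (adjusted p under 0.05), open points did not, and the bar is the list median. Medians run from 2.54 in MHC class II genes and 2.51 in late plaque-response genes to -1.19 in nuclear long noncoding RNAs and -1.33 in endothelial markers; on the pan-microglial scale the medians of the lysosomal, complement, Fc receptor, pan-microglial, homeostatic, interferon, ER chaperone, amino acid synthesis, stress factor and tRNA synthetase lists are below 0.

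Relative to the whole library, where 1.54% of all genes were called higher and 0.18% lower, no gene of the homeostatic microglial list was called lower. Of 22 members 4 were called higher, among them Csf1r, Trem2 and Slco2b1, and 0 lower, with 20 positive fold changes and a median of 0.98 that became -0.28 on the pan-microglial scale. On that scale Trem2 was called higher and 3 members were called lower, where 38.8% of all genes were. These were Crybb1, a crystallin gene (-1.94, edgeR adjusted p = 0.002509), Rhob, a small GTPase gene (-1.58, edgeR adjusted p = 0.003546), and P2ry6, a nucleotide receptor gene (-1.05, edgeR adjusted p = 0.02546), named after their values were seen. Of the 16 pan-microglial genes 6 were called higher, with a median of 1.25. With only the 2 groups in the model, edgeR called 0 homeostatic and 0 pan-microglial genes, and 6 and 5 had an unadjusted p under 0.05. With the 3 iPKR groups it called 0 of either list as well, and 8 and 8 were under 0.05. Without the 3 neuron-rich libraries, 14 homeostatic and 15 pan-microglial genes were called higher, where 3.97% of all genes were. Csf1r, the receptor on which microglia depend for survival, was at 106.0, 215.5, 187.0, 141.3 and 261.7 CPM without 5xFAD and at 726.0, 253.9, 660.4 and 547.8 CPM with it. Only replicate 2 with 5xFAD lay within the range of the controls, and the log2 fold change was 1.49 ± 0.25 (SE; edgeR adjusted p = 0.0009364). Tmem119, a marker of resident microglia, was at 96.8, 178.9, 14.4, 144.1 and 306.0 CPM without and 198.8, 13.6, 490.9 and 374.0 CPM with 5xFAD. It ranked the libraries much as their pan-microglial share did and was not called (log2 fold change 0.68 ± 0.54 SE, edgeR adjusted p = 0.6347). The fractalkine receptor gene Cx3cr1 was not called either (1.32 ± 0.70 SE, edgeR adjusted p = 0.4286). Slco2b1, a transporter gene, rose by 1.39 ± 0.34 (SE; edgeR adjusted p = 0.0305), a call lost without iPKR ASV replicate 1, 3 or 4 or 5xFAD iPKR replicate 1, 3 or 4 (adjusted p up to 0.117, without 5xFAD iPKR replicate 1).

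Relative to the microglial RNA in each library, a smaller set of genes was higher, some of them of the plaque response. With library size set to the pan-microglial counts, 32 genes were called higher (0.199%), 9 of them in the late plaque-response list, and 6240 lower (38.8%), beside the shift of the median of all genes to -1.34. They include Cst7, Tlr12, Clec7a, Ccl3, Cd68, Cd74, Ctsz, Itgax, Trem2, Spp1, Ctsd, Slc11a1, Hexa, Nlrc5 and Lyz2. Of these, Ccl3, Itgax, Ctsd, Slc11a1, Hexa, Nlrc5 and Lyz2 overlapped between the groups on this scale. The 32 also hold genes with wide errors that are in no plaque-response list. Examples, named after their values were seen, are Klhl30 (log2 fold change 10 ± 3.71 SE), Gm38345 (7.91 ± 2.095 SE) and Il1rn (7.79 ± 2.60 SE). Itgax gave 2.94 counts per 1000 pan-microglial counts in iPKR ASV replicate 3 and 1.27 and 1.29 in 5xFAD iPKR replicates 3 and 4. With only the 2 groups in that model, 0 of 13473 genes were called by edgeR and 3205 had an unadjusted p under 0.05. Per 1000 pan-microglial counts, Cst7 gave 3.50, 0.641, 4.71, 0.518 and 0.472 counts without 5xFAD and 35.4, 11.4, 38.1 and 36.5 with it. Its values in 5xFAD iPKR replicates 1, 3 and 4 were nearly equal, although the microglial share of those libraries was not. Its log2 fold change on that scale was 4.15 (edgeR adjusted p = 0.001137). Clec7a gave 0, 0, 0, 0.553 and 0.959 counts per 1000 without 5xFAD and 7.99, 5.28, 5.97 and 8.95 with it. Cd74 gave 3.31, 0.916, 9.42, 3.28 and 5.12 without and 14.2, 15.5, 18.9 and 34.8 with 5xFAD, and the groups, which overlapped in CPM, did not overlap on this scale. Trem2, itself 1 of the 16 genes of the scale, gave 6.77 to 20.9 counts per 1000 without and 27.0 to 36.8 with 5xFAD. Csf1r, also of the scale, gave 31.8 to 186.9 without and 33.3 to 125.7 with 5xFAD and overlapped throughout (log2 fold change 0.035, edgeR adjusted p = 0.9365). Tmem119 gave 40.7, 43.4, 14.4, 44.4 and 37.2 counts per 1000 without and 25.6, 6.74, 27.9 and 22.8 with 5xFAD. All controls but the neuron-rich replicate 3 lay above all libraries with 5xFAD, and the log2 fold change of -0.75 did not pass the test (edgeR adjusted p = 0.1014).

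**Figure D4:**
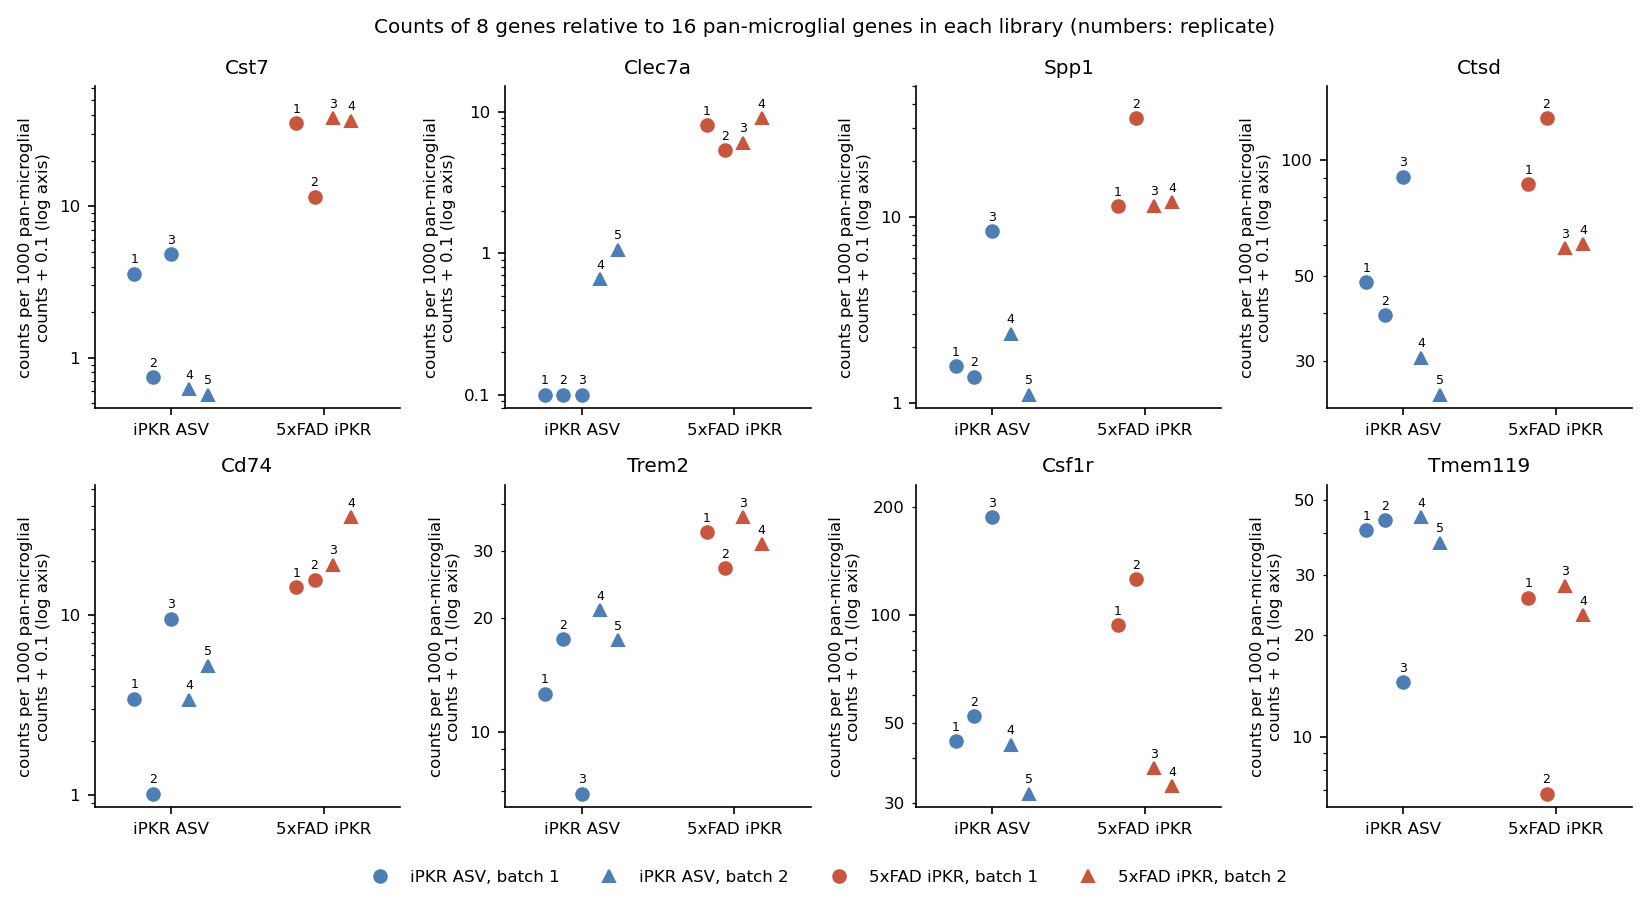
Counts of 8 genes per 1000 pan-microglial counts of the same library, plus 0.1, on log axes (blue iPKR ASV, red 5xFAD iPKR; circles batch 1, triangles batch 2; number the replicate). Cst7, Clec7a, Spp1, Cd74 and Trem2 are higher in all 4 libraries with 5xFAD, Ctsd overlaps through iPKR ASV replicate 3, Csf1r overlaps, and Tmem119 is lower in all 4 than in iPKR ASV replicates 1, 2, 4 and 5.

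Some chaperones and folding enzymes of the ER rose. Of 43 members 12 were called higher, Pdia3, P4hb, Pdia6, Dnajb11, Pdia4, Sec61a1, Ddost, Calr, Hspa5, Rpn2, Creld2 and Rpn1, and 0 lower, where 1.54% of all genes were called higher. The list median was 0.66 (-0.59 on the pan-microglial scale). Batch 1 alone gave 13 calls and batch 2 alone 1, where 1.89% and 0.613% of all genes were called higher. With only the 2 groups in the model, or only the 3 iPKR groups, edgeR called 0, and 16 and 17 members had an unadjusted p under 0.05. Pdia3, a disulfide isomerase that acts with calreticulin, was at 98.1, 95.7, 158.2, 78.9 and 93.1 CPM without 5xFAD and at 435.8, 399.5, 283.6 and 221.0 CPM with it. The groups did not overlap, and the neuron-rich libraries were the highest of each (log2 fold change 1.59 ± 0.22 SE, edgeR adjusted p = 8.551e-05). Hspa5, the ER chaperone BiP, was at 142.0, 133.2, 668.7, 162.0 and 140.1 CPM without and 1082, 992.6, 395.3 and 304.2 CPM with 5xFAD. Among the neuron-rich libraries as among the others, those with 5xFAD were higher than those without. Its call (log2 fold change 1.46 ± 0.38 SE, edgeR adjusted p = 0.04004) was lost without iPKR ASV replicate 1, 2, 4 or 5 or 5xFAD iPKR replicate 1 or 2, with adjusted p up to 0.1833 without the last. Without the 3 neuron-rich libraries its log2 fold change was 1.05, with an edgeR adjusted p of 0.0071. P4hb, the founding disulfide isomerase, Pdia6 and Dnajb11 rose by 1.35 ± 0.19, 1.36 ± 0.25 and 1.06 ± 0.21 (SE; edgeR adjusted p = 0.0001304, 0.002306 and 0.005165).

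The ER stress element, read as CCAAT and CCACG with 9 bases between them on either strand, is known as a binding sequence of the ER stress factor ATF6 together with NF-Y. It lay in the 250 bases before the start of 0.15% of the 11501 tested genes with a RefSeq promoter (GRCm38.p6), and in 8 of 35 genes of the ER list. Of 11 called ER genes with a promoter, Calr, Creld2, Hspa5 and Pdia6 held it. The 4 windows are shown, 5′ to 3′ in the direction of the gene with the element or its reverse complement in capitals, because they are the part these called chaperone genes share. They lie on chr8:84847065-84847103 (- strand), chr15:88819510-88819548 (+), chr2:34772015-34772053 (+) and chr12:17266481-17266519 (+) in that order.
Calr: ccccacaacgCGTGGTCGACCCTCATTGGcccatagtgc
Creld2: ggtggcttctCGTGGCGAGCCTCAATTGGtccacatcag
Hspa5: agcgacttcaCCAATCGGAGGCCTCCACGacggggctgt
Pdia6: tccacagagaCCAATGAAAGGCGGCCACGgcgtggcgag

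Genes of the integrated stress response mostly did not pass the test, as was so for all genes, of which 1.72% were called. Both groups carried the kinase construct and had received ASV, so these values compare mice with and without 5xFAD on that background. They are values of the mixed RNA, and what 5xFAD added to the stress response within microglia was not tested. Of 14 amino acid synthesis genes Phgdh was called, with a list median of 0.43 (-0.72 on the pan-microglial scale), and of 15 stress transcription factors and effectors Nfe2l2 was called, with a median of 0.23 (-1.08). Of 20 cytosolic tRNA synthetases, 10 amino acid transporters and 13 eIF2 kinases, eIF2 subunits and phosphatase subunits, 0 were called by edgeR, limma-voom or DESeq2, and 3, 3 and 2 had an unadjusted p under 0.05 in edgeR. Their medians were 0.35, 0.42 and 0.15, and -0.84, -0.53 and -0.97 on the pan-microglial scale. Atf4, the central transcription factor, was at 132.3, 185.5, 53.3, 113.9 and 153.4 CPM without 5xFAD and at 59.6, 71.0, 134.0 and 119.6 CPM with it. Its 3 lowest values were those of the neuron-rich libraries, and it was not called (log2 fold change -0.38 ± 0.27 SE, edgeR adjusted p = 0.5775). Ddit3, the stress factor CHOP, was at 11.5 to 45.6 CPM without and 16.1 to 27.4 CPM with 5xFAD (-0.52 ± 0.32 SE, edgeR adjusted p = 0.5118).

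The target genes of ATF4 were uneven. Phgdh, the first enzyme of serine synthesis, was at 28.0, 38.7, 82.2, 22.4 and 43.0 CPM without and 122.3, 103.6, 74.9 and 50.4 CPM with 5xFAD. The groups overlapped, and the call (0.96 ± 0.24 SE, edgeR adjusted p = 0.03314) was kept only without iPKR ASV replicate 3 or 5xFAD iPKR replicate 4 when 1 library was left out, with adjusted p up to 0.1328 without 5xFAD iPKR replicate 2. Psat1, the next enzyme of serine synthesis, missed the threshold (1.00 ± 0.29 SE, edgeR adjusted p = 0.07841). Asns, the asparagine synthetase, was at 75.2 to 431.8 CPM without 5xFAD and at 346.9, 493.6 and 83.1 CPM in 5xFAD iPKR replicates 1 to 3, with replicate 4 lower still (0.31 ± 0.43 SE, edgeR adjusted p = 0.8162). Trib3, a pseudokinase of the pathway, was at 14.0, 16.99, 3.24, 19.0 and 47.7 CPM without and 9.66, 5.33, 97.3 and 93.9 CPM with 5xFAD. It was high in the batch 2 libraries with 5xFAD and not in those of batch 1, with log2 fold changes of 1.46 and -0.050 (1.11 ± 0.60 SE over both, edgeR adjusted p = 0.4352). Chac1, a glutathione-degrading enzyme, had a log2 fold change of 0.14 ± 0.44 (SE; edgeR adjusted p = 0.9327). Nfe2l2, the antioxidant factor NRF2, was at 25.9, 39.8, 21.8, 25.3 and 34.9 CPM without and 63.6, 47.9, 79.6 and 87.8 CPM with 5xFAD. It did not overlap between the groups and rose by 1.26 ± 0.24 (SE; edgeR adjusted p = 0.003649). Eif2s1, which encodes eIF2α, and Eif2ak2, the endogenous PKR gene, had log2 fold changes of 0.47 ± 0.22 and 0.41 ± 0.81 (SE; edgeR adjusted p = 0.3578 and 0.8806).

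Lipid and metabolic genes changed in single members, where 1.54% of all genes were called higher. Of 22 genes of sterol efflux and lipid handling 4 were called higher, Apoe, Lpl, Soat1 and Plin2. Soat1, which esterifies cholesterol, rose by 1.47 ± 0.27 (SE; edgeR adjusted p = 0.001882), and Plin2, a coat protein of lipid droplets, by 1.98 ± 0.45 (SE; edgeR adjusted p = 0.01786), with calls of Plin2 lost without iPKR ASV replicate 5 or 5xFAD iPKR replicate 3 (adjusted p up to 0.06161). Abca1, the sterol exporter, was not called (0.45 ± 0.30 SE, edgeR adjusted p = 0.5418). Of 22 genes of cholesterol synthesis and uptake, 2 were called higher, the synthesis enzyme Dhcr7 among them, with a list median of 0.68 over all libraries, 0.26 without the 3 neuron-rich ones and -0.39 on the pan-microglial scale. Dhcr7 (1.09 ± 0.29 SE, edgeR adjusted p = 0.04659) was called in 1 of 9 fits that each left out 1 library, the fit without iPKR ASV replicate 3, and its adjusted p was 0.127 without 5xFAD iPKR replicate 2. Sod2, the mitochondrial superoxide dismutase, was called (1.66 ± 0.32 SE, edgeR adjusted p = 0.003884), but its log2 fold change was 2.43 in batch 1, 0.34 in batch 2 and 0.26 without the neuron-rich libraries (edgeR adjusted p = 0.5111). The neuron markers moved with Sod2, and their part in the result was not tested. Prdx1, a peroxidase, rose in all 4 libraries, from 117.0 to 238.9 CPM without to 321.4 to 377.0 CPM with 5xFAD (0.84 ± 0.18 SE, edgeR adjusted p = 0.01123). Elovl1, which lengthens fatty acids, was called (1.29 ± 0.30 SE, edgeR adjusted p = 0.01987), a call lost without iPKR ASV replicate 4 or 5xFAD iPKR replicate 3 or 4 (adjusted p up to 0.07621). Among 20 cell cycle genes Mcm3, a subunit of the replication helicase, alone was called (1.56 ± 0.32 SE, edgeR adjusted p = 0.008408). Slc11a1, an iron exporter of phagosomes, rose by 2.41 ± 0.48 (SE; edgeR adjusted p = 0.004954) and Slc16a3, a lactate exporter, by 2.00 ± 0.40 (SE; edgeR adjusted p = 0.006072).

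The 29 genes that fell were fewer and of other kinds, 19 of them protein-coding. Sptan1, the αII-spectrin of the membrane skeleton (chr2:29965560-30031451), was at 489.0, 194.6, 244.5, 439.7 and 172.3 CPM without 5xFAD and at 46.3, 43.2, 74.4 and 85.6 CPM with it. All 4 libraries with 5xFAD were below all 5 controls in both batches (log2 fold change -2.36 ± 0.30 SE, edgeR adjusted p = 2.979e-05). Prpf8, the core protein of the spliceosome, was at 503.9, 679.4, 1334, 355.7 and 296.3 CPM without and 475.7, 311.9, 62.9 and 69.5 CPM with 5xFAD. It overlapped between the groups in CPM, was called (-1.68 ± 0.31 SE, edgeR adjusted p = 0.002306) and had log2 fold changes of -1.10 in batch 1 and -2.21 in batch 2. Ubr3, a ubiquitin ligase gene, ran from 793.9 to 7577 CPM without and from 165.5 to 1945 CPM with 5xFAD. Its call (-1.97 ± 0.45 SE, edgeR adjusted p = 0.01987) was lost without iPKR ASV replicate 3 or 4 or 5xFAD iPKR replicate 4, with adjusted p up to 0.06591. In iPKR vehicle mice, which had the construct and VEGF without ASV or 5xFAD, Ubr3 and Prpf8 averaged 418.6 and 156.9 CPM. These means lay below the 868.3 and 230.0 CPM of 5xFAD iPKR, and iPKR ASV averaged 2935 and 633.9 CPM. Sptan1 averaged 170.0 CPM in iPKR vehicle, above the 62.4 CPM of 5xFAD iPKR.

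The other named genes that fell had calls that rested on single libraries. They were the zinc finger gene Zfp189 (-1.67 ± 0.38 SE), the sarcoglycan gene Sgcz (-2.24 ± 0.51 SE), the kinase gene Map3k6 (-4.38 ± 1.04 SE), the endocytic adaptor gene Epn1 (-0.89 ± 0.21 SE), the spine protein gene Ppp1r9a (-1.18 ± 0.29 SE), the splicing regulator gene Khdrbs3 (-1.56 ± 0.38 SE) and the ubiquitin ligase gene Ubr4 (-1.14 ± 0.29 SE). The call of Zfp189 was lost without 5xFAD iPKR replicate 1, that of Sgcz without iPKR ASV replicate 4 or 5xFAD iPKR replicate 1, and that of Map3k6 without 5xFAD iPKR replicate 3 or 4. Out of 9 fits that each left out 1 library, those of Epn1, Ppp1r9a, Khdrbs3 and Ubr4 were kept in 4, 5, 5 and 4. The adjusted p of the 7 genes, in the order above, reached 0.07382, 0.0583, 0.08937, 0.08965, 0.09808, 0.1013 and 0.08946 in edgeR. The protein-coding genes that fell had a median coding length of 1962 bases, against 1440 for all 13777 protein-coding genes tested and 1335 for the 240 that rose, and 36.8%, 15.2% and 5.83% of them were over 3000 bases. Over all genes with a coding length, the median log2 fold change was 0.13 for lengths over 1000 and up to 2000 bases, -0.23 above 5000 and -0.20 up to 500. The part of transcript length in these calls was not tested.

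RNAs of the nucleus and of vessels had negative fold changes and did not pass the test over all libraries with the labelled sex. All 8 nuclear long noncoding RNAs had negative fold changes, with a median of -1.19, and 0 were called by edgeR with the labelled sex. By an unadjusted p 5 were under 0.05, DESeq2 called 4 and limma-voom 0. With sex taken from Y-linked reads, in batch 1 alone and on the pan-microglial scale edgeR called 2, 3 and all 8 lower. In those settings 0.348%, 1.1% and 38.8% of all genes were called lower. Malat1 was at 1674, 1184, 277.2, 786.0 and 1069 CPM without 5xFAD and at 90.6, 74.6, 581.0 and 677.7 CPM with it. Its 3 lowest values were those of the neuron-rich libraries (-1.82 ± 0.60 SE, edgeR adjusted p = 0.1336). All 12 endothelial markers were negative too, with a median of -1.33, 0 called by edgeR and limma-voom, 1 by DESeq2 and 5 with an unadjusted p under 0.05. Their share of counts was 0.0461% and 0.0538% in iPKR ASV replicates 1 and 4 and 0.00623% to 0.0212% in the other 7 libraries, so that 2 of the 5 controls were above all others. Cldn5, the tight junction gene of endothelium, had a log2 fold change of -2.22 ± 1.02 (SE; edgeR adjusted p = 0.3377).

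Markers of other cells of the cortex were counted beside these genes, with 1.72% of all genes called. Of 13 neuron, 9 astrocyte, 12 oligodendrocyte, 5 oligodendrocyte precursor, 8 mural, 10 border macrophage and 5 tested monocyte and neutrophil markers 0 were called by edgeR, and 0, 2, 3, 1, 0, 2 and 0 had an unadjusted p under 0.05. DESeq2 called 1 oligodendrocyte marker and limma-voom 1 border macrophage marker. In batch 1 alone, which holds the neuron-rich libraries, edgeR called 1 neuron, 2 astrocyte and 2 oligodendrocyte markers higher, where 1.89% of all genes were. It called 1 border macrophage marker higher in batch 2 alone, and 1 without the neuron-rich libraries, where 0.613% and 3.97% of all genes were. The list medians were 0.21, 0.52, 0.29, 0.14, 0.02, 0.96 and -1.17. Snap25, a synaptic protein gene of neurons, was at 7620, 7364, 17640, 2084 and 4101 CPM without and 26820, 29340, 2776 and 2272 CPM with 5xFAD. Its log2 fold change was 1.42 in batch 1 and -0.40 in batch 2. Mbp, the myelin basic protein gene, had a log2 fold change of -0.031 ± 0.29 (SE; edgeR adjusted p = 0.9818). Border macrophage markers took 0.00160% to 0.0104% of counts without and 0.00205% to 0.0200% with 5xFAD, and their part in the macrophage genes that rose was not tested.

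Genes used in the transgenes gave mixed values. App was at 571.3, 511.4, 2686, 383.0 and 416.6 CPM without 5xFAD and at 3875, 4590, 430.1 and 307.1 CPM with it. It was high in the neuron-rich libraries of both groups and not called (1.25 ± 0.49 SE, edgeR adjusted p = 0.2353), with log2 fold changes of 1.96 in batch 1 and -0.22 in batch 2. Thy1 was at 20.6, 26.0, 195.6, 36.3 and 56.2 CPM without and 363.0, 760.0, 137.8 and 173.0 CPM with 5xFAD. It was called (2.47 ± 0.48 SE, edgeR adjusted p = 0.004887) and stayed so without the neuron-rich libraries (1.90, edgeR adjusted p = 0.002131). The APP of the transgenes is human and the counts are of the mouse genes, so App does not check the labels. The Thy1 sequence of the transgenes is that of the mouse, and whether transgene reads entered the Thy1 counts was not tested.

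The 5xFAD effect was then set beside that in 2 other backgrounds, 5xFAD TRAP against TRAP (tag alone, 4 and 5 libraries) and 5xFAD Eif2A against Eif2A (Eif2s1A/A;Tg(Eif2s1), known to leave an eIF2α that cannot be phosphorylated, with tamoxifen only, 3 and 4 libraries). The 5xFAD TRAP mice had VEGF and ASV, and their TRAP controls did not, so those effects hold the treatment as well. Of the 23 late plaque-response genes 17, 19 and 21 were called higher with iPKR, the plain tag and Eif2A, where 1.54%, 0.709% and 2.08% of all genes were, with medians of 2.51, 2.64 and 3.12. The early list had medians of 2.07, 1.21 and 1.94. The backgrounds were compared on the whole-library scale only, where the pan-microglial genes had medians of 1.25, -0.02 and 0.44. The part of the microglial share in likenesses or differences between backgrounds was not tested. Cst7 changed by 6.27 ± 0.63, 5.34 ± 0.55 and 7.22 ± 0.66 (log2, SE) with iPKR, the plain tag and Eif2A, Itgax by 4.64 ± 0.73, 4.51 ± 0.69 and 3.91 ± 0.72, and Spp1 by 4.10 ± 0.60, 4.38 ± 0.58 and 5.13 ± 0.67. For these 3 genes no difference between iPKR and the other backgrounds passed the test (edgeR adjusted p for the difference from 0.8422 to 0.9981), which does not show that they are equal. Class II presentation went further here in value on that scale, with Cd74 at 3.77 ± 0.54, 1.05 ± 0.49 and 1.28 ± 0.54. The differences of 2.72 ± 0.71 and 2.49 ± 0.77 did not pass either (edgeR adjusted p = 0.2832 and 0.2806). In the controls Cd74 averaged 14.8 CPM in iPKR ASV, 188.6 CPM in TRAP and 142.0 CPM in Eif2A.

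In 6 genes (0.0373% of those tested) the effect differed from that on the plain tag and in 12 (0.0747%) from that on Eif2A, with 1084 and 1302 genes at an unadjusted p under 0.05. Fabp5, a fatty acid binding protein of the late plaque response, was at 41.7 CPM without and 63.3 CPM with 5xFAD here, on average, and changed by 0.52 ± 0.35. It changed by 3.33 ± 0.36 on the plain tag and 3.12 ± 0.39 on Eif2A, differences of -2.81 ± 0.50 and -2.61 ± 0.53 (SE; edgeR adjusted p = 0.01874 and 0.04709). Ank behaved alike, with 0.62 ± 0.25 here, 2.64 ± 0.26 on the plain tag and 2.89 ± 0.28 on Eif2A (edgeR adjusted p of the differences 0.01874 and 0.01475). The controls of both genes differed as well: Ank averaged 184.2 CPM in iPKR ASV, 76.9 CPM in TRAP and 72.9 CPM in Eif2A, and Fabp5 41.7, 13.4 and 18.1 CPM. The differences of Myo1e, a motor of phagocytosis, Fam20c, a secretory kinase, Actr3b, an actin-related gene, and Ctla2a, a cysteine protease inhibitor, from Eif2A were -2.58, -2.35, -2.10 and -5.50 (edgeR adjusted p = 0.03642, 0.03642, 0.02828 and 0.001053). In the controls Myo1e averaged 26.9 CPM in iPKR ASV and 21.6 CPM in Eif2A, Fam20c 32.1 and 13.4 CPM, Actr3b 170.4 and 31.6 CPM, and Ctla2a 5.40 and 1.98 CPM. Tlr12 differed upward, with a fitted 6.58 ± 0.82 here, which rests on 1 count in its controls, against 0.46 ± 0.46 and 1.30 ± 0.51, and its 4 5xFAD iPKR libraries averaged 5.61 CPM, below the 19.2 CPM of TRAP mice without 5xFAD. Sptan1 and Ubr3 differed from the plain tag by -2.20 ± 0.41 and -3.62 ± 0.64 (SE; edgeR adjusted p = 0.0279 and 0.01874), and averaged 308.0 and 2935 CPM in iPKR ASV against 31.5 and 113.2 CPM in TRAP. Prkca, a protein kinase C gene, fell on Eif2A and was not called here, a difference of 1.73 ± 0.33 (SE; edgeR adjusted p = 0.03642). Out of 9 fits that each left out 1 library, the difference from Eif2A was called in 9 for Ctla2a, 8 for Ank, 7 for Actr3b, 4 for Myo1e and Prkca, 3 for Fabp5 and Fam20c and 2 for Tlr12. That from the plain tag was called in 9 for Tlr12, 8 for Fabp5 and 6 for Ank, Ubr3 and Sptan1. The counts of genes moved with single libraries: from 1 without 5xFAD iPKR replicate 1 to 103 without 5xFAD iPKR replicate 2 against the plain tag, and from 1 to 47 without the same libraries against Eif2A. Y-linked reads went against the labelled sex in Eif2A replicates 3 and 4 as well. The differences of effect were not fitted with sex from the reads. Without a sex term 9 genes differed from the plain tag and 14 from Eif2A.

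**Figure D5:**
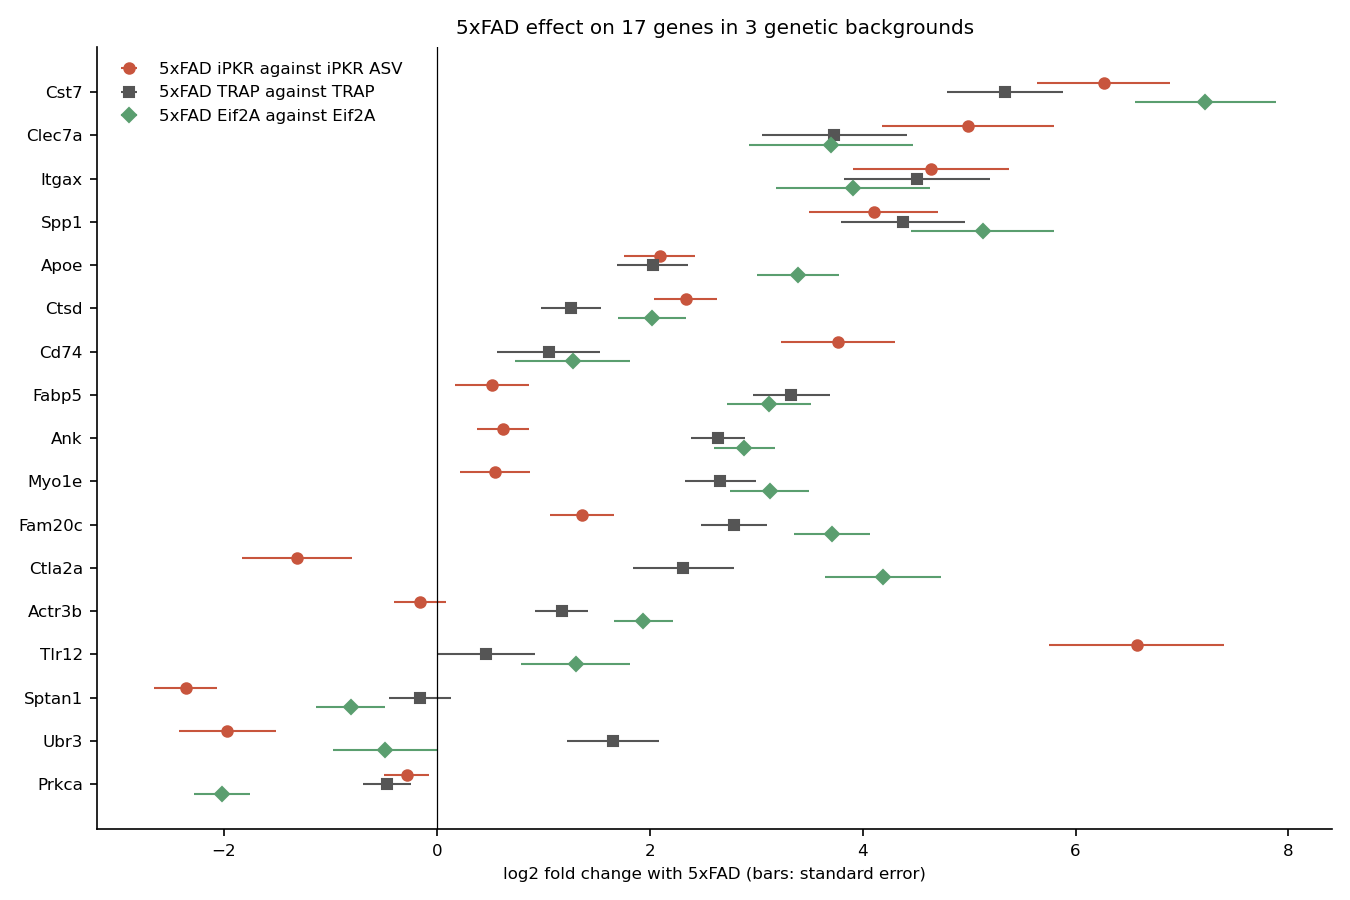
Log2 fold change with 5xFAD (bars, standard error) for 17 genes among iPKR mice with ASV (red circles), mice with the tag alone (grey squares) and Eif2A mice (green diamonds). For Cst7, Clec7a, Itgax and Spp1 no difference between iPKR and the other backgrounds passed the test, which does not show that the effects are equal. Those of Fabp5 and Ank are 0.52 and 0.62 among iPKR mice and 2.64 to 3.33 in the others.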

How the data were processed

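Raw read counts per gene were used as deposited, for 29 libraries and 22327 genes. Per the submitters' processing notes, the tools were Trim Galore, HISAT2 2.2.1 and featureCounts 2.0.3 with the mm10 build. Whether the counting used strand is not given in the sources used here, so overlapping and antisense genes cannot be told apart. Genes were filtered with filterByExpr (minimum count 10, minimum total 15), which left 16074, and tested with edgeR 4.0.16 (quasi-likelihood, TMM factors, R 4.3.3) on all 29 libraries with group, batch and labelled sex, on 20 residual degrees of freedom. Two-sided p-values were adjusted by Benjamini-Hochberg over all genes tested, at a threshold of 0.05. limma 3.58.1 and DESeq2 1.42.0 were alternatives. The pan-microglial scale used the summed counts of 16 genes as library size. Groups came from the labels. The members and the 47 gene lists were chosen with earlier results of these data known. Named genes were the 10 with the smallest p in each direction (log2 fold change at least 0.5, mean log2 CPM at least 1, no unnamed or sex-linked genes), up to 4 called members per list, genes named whatever their result, and the 5 of smallest p in each direction for differences of effect. Other list members are named to account for a count. A few genes are not reported here. Gene positions come from GENCODE (mm10) and promoters from RefSeq (GRCm38.p6). The script was tested on simulated data in which all groups shared the spread of each gene, so that test does not cover groups of unequal spread.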

Additional observations from a re-analysis of the deposited data

Results flagged for a closer look

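Of 208 sets of values in groups of 4 or 5 libraries, 18 had a library set apart from the rest by Dixon's criterion at 95%, which chance gives in about 1 of 20 sets. In iPKR ASV replicate 3, the control richest in neuron markers, App stood at 2686 CPM, Atp6ap1 at 408.6, Hspa5 at 668.7, Pdia3 at 158.2, Prkca at 222.1, Thy1 at 195.6 and Ubr3 at 7577 CPM, each above the other 4 controls. In iPKR ASV replicate 5, the control richest in pan-microglial genes, Apoe stood at 843.1 CPM, Cd74 at 42.1, Clec7a at 7.88, Ctsz at 228.0, Elovl1 at 30.9 and H2-Ab1 at 18.9 CPM, above the other controls and, for Apoe and Clec7a, below all libraries with 5xFAD. Il1b stood at 3.21 CPM in iPKR ASV replicate 2 and at 0 in the other 4 controls. Sgcz at 192.7 CPM and Tlr12 at 0.112 CPM were apart in iPKR ASV replicate 4, and P4hb at 185.5 CPM in 5xFAD iPKR replicate 1. Monocyte and neutrophil markers took 0.00189% of counts in 5xFAD iPKR replicate 3, against at most 0.000576% in the other 3 libraries with 5xFAD.

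Effects of 5xFAD that differed by the edgeR test of the difference itself are given as log2 values. From the plain tag these were Tlr12 at 6.11, Ubr3 at -3.62, Fabp5 at -2.81, Ank at -2.02 and Sptan1 at -2.20. From Eif2A they were Ctla2a at -5.50, Ank at -2.27, Actr3b at -2.10, Prkca at 1.73, Fam20c at -2.35, Myo1e at -2.58, Fabp5 at -2.61 and Tlr12 at 5.27.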

How the results depend on the processing

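The 277 calls became 184 without a batch term, 454 and 124 in batches 1 and 2 alone, 10 with only these groups, 22 with the 3 iPKR groups (38 with sex from Y-linked reads as well), 674 with DESeq2, 1867 with the pan-microglial share as covariate, 6272 on the pan-microglial scale, 739 without the 3 neuron-rich libraries and 172 to 542 with 1 library left out. Other settings gave 209 to 384. The share of higher calls, 89.5%, was 78.6% with DESeq2, 63.2% in batch 1, 50.6% with the covariate and 0.51% on the pan-microglial scale. With the replicate number as a block 135 genes were called, but same-numbered libraries correlated at -0.063, -0.143, -0.536 and 0.106, so the libraries share only a number. The 6 differences from the plain tag became 3 with limma-voom, 118 with DESeq2, 5 with the block and 1 to 103 with 1 library left out. The 12 from Eif2A became 2 without batch, 1 with the block, 237 with DESeq2 and 1 to 47 with 1 library left out. The 6272 calls on the pan-microglial scale became 2582 with homeostatic genes as scale, 0 with only these groups, 3716 with the block, 10424 without the neuron-rich libraries and 2566 to 12142 with 1 library left out. The cause was not tested. Leaving out the neuron-rich libraries and joining Y-linked sex with the 3 iPKR groups were chosen after seeing the data.

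Of the values of 90 named genes under 27 settings, 1945 kept direction and side of the threshold, 407 lost the call, 22 gained it and 52 changed sign. On the pan-microglial scale the log2 fold changes that changed sign were Abca1 -0.99, Ank -0.63, Asah1 -0.017, Asns -0.67, Chac1 -1.08, Dhcr7 -0.22, Eif2ak2 -0.51, Eif2s1 -0.76, Elovl1 -0.042, Fabp5 -0.82, Itgam -0.034, Lgmn -0.17, Myo1e -0.98, Nfe2l2 -0.042, Phgdh -0.21, Plcg2 -0.16, Prdx1 -0.30, Psat1 -0.073, Slco2b1 -0.060, Snap25 -0.11, Tmem119 -0.75 and Trib3 -0.34. With the covariate these were Chac1 -0.30, Prkca 0.019, Tmem119 -1.15 and Trib3 -0.12. In batch 2 they were App -0.22, Asns -0.16, Eif2ak2 -1.05, Mbp 0.59 and Snap25 -0.40, in batch 1 Fabp5 -0.086 and Trib3 -0.050, and without the neuron-rich libraries App -0.43, Asns -0.64, Eif2ak2 -0.37, Mbp 0.14 and Snap25 -0.53. Chac1 was -0.037 with only these groups, and Mbp was 0.068 there, 0.057 without batch, 0.044 with the 3 iPKR groups, 0.015 with the block and 0.074 with limma-voom. With 1 library left out, Asns ran from -0.31 to 0.82, Chac1 from -0.037 to 0.52, Eif2ak2 from -0.044 to 1.37 and Mbp from -0.23 to 0.13. Depth limits genes of low counts, such as Il1b and Nlrc5.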
